A study of Drosophila melanogaster with 2 samples.

Results

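The Enhancer of split (E(spl)) bHLH genes encode small transcriptional repressors that carry the response to Notch in the fly nervous system. The genes examined here were the 7 E(spl) bHLH genes, E(spl)mdelta-HLH, E(spl)mgamma-HLH, E(spl)mbeta-HLH, E(spl)m3-HLH, E(spl)m5-HLH, E(spl)m7-HLH and E(spl)m8-HLH, together with their relative hairy (h). They were picked by gene symbol, with no level entering the rule, and each of the 8 symbols matched a single row of the 13623 genes in the table. When Notch on a cell is engaged by Delta or Serrate on a neighbour, its intracellular part enters the nucleus and joins Suppressor of Hairless, and the E(spl) genes are among the best known targets of that complex. The E(spl) proteins recruit the corepressor Groucho and hold back the proneural bHLH activators, so that few cells of a proneural cluster become neuroblasts. Hairy belongs to the same class of repressor but is known as a pair-rule segmentation gene and as a repressor of achaete in bristle patterning, and it is not a general Notch target.

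Nuclear RNA was profiled in 2 libraries, 1 from neurons and 1 from neural stem cells (NSCs), whose nuclei were captured by INTACT, in which tagged nuclei are pulled from an embryo homogenate on antibody-coated beads. Neuronal nuclei came from Elav-Gal4 embryos labelled as 12 to 14 h after egg laying, and NSC nuclei from Sca-Gal4/cyo embryos labelled as 5 to 7 h. Both carried the same tag under UAS control, 3xFLAG-blrp-mCherry-RanGap, in which the nuclear envelope protein RanGap is joined to FLAG, to a peptide that biotin ligase can modify (blrp) and to mCherry. GAL4 followed elav, a pan-neuronal gene, in the neuron library, and scabrous (sca), a gene known to be active in proneural clusters as well as in neural precursors, in the NSC library. According to the methods, the NSC embryos came from a self-cross of flies with the driver over the CyO balancer, so that some of them may not have carried the driver. The labels also give a 2 h collection with 3 or 10 further hours, which does not add up to the labelled ages. No group had a replicate, so every difference below is between these libraries and no p-value was computed. The effects of cell type, of embryo age and of the driver line cannot be told apart.

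The levels are FPKM, which divide the fragments of a gene by a transcript length and by the mapped fragments of its library. The length that best matched the values was the exonic length less 200 bases. Levels of different genes can thus be set side by side, but bias by length or sequence was not tested. The steps of the low values placed the depth at about 69450000 mapped fragments for the neuron library and 65250000 for the NSC library. FPKM summed to 669144 in neurons and 805334 in NSCs. The change of a gene is the log2 ratio of neuron to NSC FPKM after adding 1 to each, which understates the change of low genes. A gene is called 2-fold higher or lower where this log2 ratio is at least 1 or at most -1. By this rule 26.9% of the 10158 genes with at least 1 FPKM in at least 1 library were higher in neurons and 16.6% lower. Of the 8 neuron markers, 7 were higher by at least 2-fold in neurons. The other, elav itself, had 77.0 FPKM in neurons and 46.5 FPKM in NSCs (log2 change 0.72). Of the 6 NSC markers, sca, deadpan (dpn) and miranda (mira) were at least 2-fold lower in neurons, and sca had 4.72 FPKM in neurons and 64.0 FPKM in NSCs. The other 3 lay within 2-fold, with log2 changes of -0.92 for ase, -0.85 for wor and 0.53 for insc, which had 15.5 FPKM in neurons and 10.5 FPKM in NSCs. Markers of other tissues all had values above 0 in both libraries, although some were below 1 FPKM in 1 library or in both. Their summed levels were 1266 FPKM in neurons and 267 FPKM in NSCs for 7 muscle markers, 894 and 149 FPKM for 7 hemocyte markers, 590 and 79.1 FPKM for 4 tracheal markers, 365 and 207 FPKM for 7 glial markers, and 104 and 35.4 FPKM for 5 epidermal markers. The medians of their log2 changes were 0.74, 2.87 (over the 6 hemocyte markers above the minimum level), 2.08, 0.86 and -0.03, and the numbers past 2-fold upward and downward in neurons were 3 and 3, 4 and 0, 2 and 1, 3 and 0, and 2 and 0. These tissues' part in the levels below was not tested, and in whole nuclear pools fewer nuclei of a type cannot be told apart from less RNA per nucleus.

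The E(spl) bHLH genes as a group were lower in neurons, but they did not move together. A total of 5 of the 8 genes (62.5%) were at least 2-fold lower in neurons, compared with 16.6% of the 10158 genes with at least 1 FPKM in at least 1 library. A further 2 of the 8 (25%), E(spl)mbeta-HLH and E(spl)m3-HLH, were at least 2-fold higher, compared with 26.9% of all genes, so the share of higher genes was near the background. The median log2 change was -1.30 over the 8 genes and -1.56 over the 7 E(spl) genes, compared with 0.14 over all genes compared. The summed level of the 7 E(spl) genes was 355 FPKM in neurons and 1032 FPKM in NSCs, 2.91-fold lower in neurons. The 5 lower genes together had 217 FPKM in neurons and 969 FPKM in NSCs (4.46-fold lower), whereas the 2 higher genes together had 137 FPKM in neurons and 62.9 FPKM in NSCs (2.18-fold higher).

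**Figure D1:**
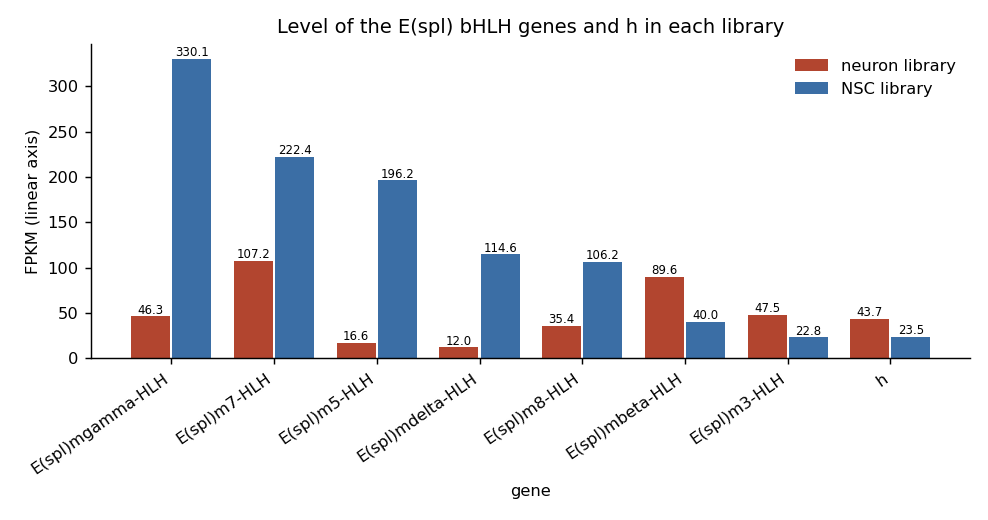
FPKM of the 7 E(spl) bHLH genes, ordered by NSC level, and of h on a linear axis, with the single neuron library in red and the single NSC library in blue and no error bars because there was 1 library per group. The neuron bar is the shorter for the 5 genes on the left and the taller for E(spl)mbeta-HLH, E(spl)m3-HLH and h.

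The largest differences were found in 3 genes, E(spl)m5-HLH, E(spl)mdelta-HLH and E(spl)mgamma-HLH. E(spl)m5-HLH, whose protein is bound by casein kinase 2 as are those of m7 and m8, had 16.6 FPKM in neurons and 196 FPKM in NSCs. It was 11.8-fold lower in neurons (log2 change -3.49), and 0.354% of the genes compared had a change this low or lower. E(spl)mdelta-HLH, which lies at the end of the complex farthest from groucho, had 11.96 FPKM in neurons and 114.6 FPKM in NSCs. It was 9.58-fold lower (log2 change -3.16) and had the lowest neuron level of the family. E(spl)mgamma-HLH, a member that is widely used as a reporter of Notch activity in larval neuroblasts, had 46.3 FPKM in neurons and 330.1 FPKM in NSCs. It was 7.14-fold lower (log2 change -2.81), while its NSC level was the highest of the family and at percentile 98.0 of all genes in that library.

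E(spl)m8-HLH and E(spl)m7-HLH were also lower in neurons, by less. E(spl)m8-HLH, the gene altered in the dominant allele that gave the complex its name, had 35.4 FPKM in neurons and 106 FPKM in NSCs, 3.00-fold lower (log2 change -1.56). E(spl)m7-HLH had 107 FPKM in neurons and 222 FPKM in NSCs, 2.07-fold lower (log2 change -1.05). It remained at percentile 94.0 of all genes in neurons, against percentile 97.0 in NSCs, and was the most abundant E(spl) transcript of the neuron library. Under TPM scaling, which sets both libraries to the same total, the log2 change of E(spl)m7-HLH was -0.78 and no longer 2-fold.

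The other 3 genes had higher values in neurons. E(spl)mbeta-HLH had 89.6 FPKM in neurons and 40.03 FPKM in NSCs, 2.24-fold higher (log2 change 1.14). E(spl)m3-HLH had 47.5 FPKM in neurons and 22.8 FPKM in NSCs, 2.08-fold higher (log2 change 1.02), which was only just past 2-fold. With a pseudocount of 5 its log2 change was 0.91. h had 43.7 FPKM in neurons and 23.5 FPKM in NSCs, a ratio of 1.86 (log2 change 0.87) that did not reach 2-fold, and under TPM scaling its log2 change was 1.13. A change as high as that of E(spl)mbeta-HLH was found in 23.5% of the genes compared, and one as high as that of E(spl)m3-HLH in 26.1%. These 3 genes were the lowest of the 8 in the NSC library, which follows in part from grouping them by a ratio with the NSC level as divisor. The summed levels of the muscle, hemocyte, tracheal, glial and epidermal markers given above were also higher in the neuron library. So was that of the 8 neuron markers, with 503 FPKM in neurons and 74.5 FPKM in NSCs. The part of neurons and of these other tissues in the 3 values was not tested.

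**Figure D2:**
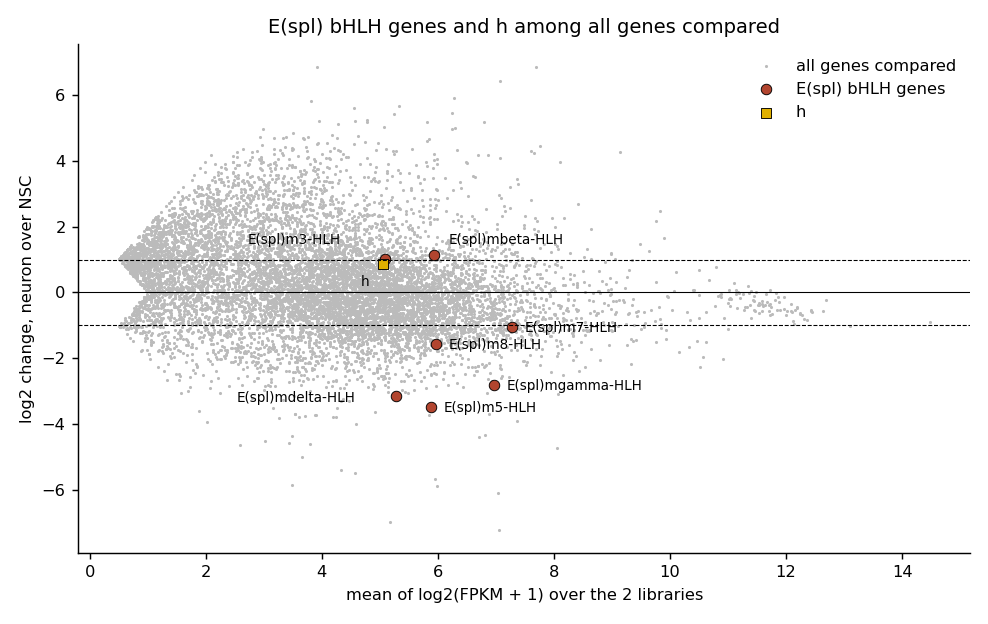
Log2 change (neuron over NSC, vertical) against the mean of log2(FPKM + 1) over the 2 libraries (horizontal) for the 10158 genes compared, in grey, with the 7 E(spl) bHLH genes as red circles and h as a yellow square. Dashed lines mark 2-fold. E(spl)m5-HLH, E(spl)mdelta-HLH and E(spl)mgamma-HLH, at -3.49 to -2.81, lie below most genes of similar level, whereas h, E(spl)m3-HLH and E(spl)mbeta-HLH, at 0.87 to 1.14, lie well within the cloud.

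How many fragments stood behind these values could be estimated for the E(spl) genes, since each is annotated with 1 transcript of 1 exon. With the estimated depth they rested on 675 to 5823 fragments in neurons and 1647 to 15315 in NSCs, the fewest being those of E(spl)mdelta-HLH in neurons and of E(spl)m3-HLH in NSCs. The counting error was 3.85% or less in each case. The 95% counting interval of the log2 ratio of FPKM was -3.67 to -3.46 for E(spl)m5-HLH, -1.10 to -1.01 for E(spl)m7-HLH and 0.97 to 1.14 for E(spl)m3-HLH, so 2-fold lay inside the interval of E(spl)m3-HLH. Intervals cover counting error only, leave out the variation between preparations, and treat reads as independent molecules. No annotated gene overlapped any of the 8 genes. Because the E(spl) genes have no intron, precursor and mature transcripts in the nucleus gave the same reads. h has 3 exons and 2 transcripts, and its fragments were not estimated.

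The order of the E(spl) genes by level differed between the libraries. In neurons the order was E(spl)m7-HLH, E(spl)mbeta-HLH, E(spl)m3-HLH, E(spl)mgamma-HLH, E(spl)m8-HLH, E(spl)m5-HLH and E(spl)mdelta-HLH. In NSCs it was E(spl)mgamma-HLH, E(spl)m7-HLH, E(spl)m5-HLH, E(spl)mdelta-HLH, E(spl)m8-HLH, E(spl)mbeta-HLH and E(spl)m3-HLH. The highest gene was 8.96 times the lowest in neurons and 14.5 times the lowest in NSCs. Of the neighbours in these orders, E(spl)m3-HLH and E(spl)mgamma-HLH in neurons did not differ beyond counting error, with a ratio of 1.03 (95% counting interval 0.974 to 1.08). Each of the other neighbouring pairs did, the closest being E(spl)mdelta-HLH over E(spl)m8-HLH in NSCs at 1.08 (1.04 to 1.12). These intervals cover counting error only, and bias by length or sequence, which can differ between genes, was not tested. The spread between preparations is not known, so such ratios hold for these libraries only.

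The make-up of the E(spl) signal differed accordingly. E(spl)mgamma-HLH made up 13.0% of the summed FPKM of the 7 genes in neurons and 32.0% in NSCs. E(spl)m5-HLH made up 4.68% in neurons and 19.0% in NSCs, and E(spl)mdelta-HLH 3.37% in neurons and 11.1% in NSCs. In the other direction, E(spl)mbeta-HLH made up 25.3% in neurons and 3.88% in NSCs, and E(spl)m3-HLH 13.4% in neurons and 2.21% in NSCs. The share of E(spl)m8-HLH was nearly level, at 10.0% in neurons and 10.3% in NSCs, and E(spl)m7-HLH held 30.2% in neurons and 21.5% in NSCs. These shares are ratios within a library and do not depend on how the libraries are scaled to each other.

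**Figure D3:**
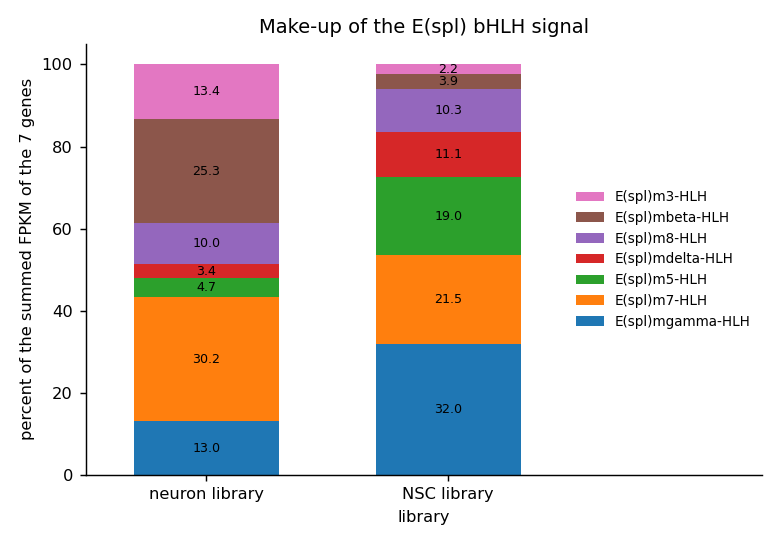
Share of each of the 7 E(spl) bHLH genes in their summed FPKM (percent), with the neuron library on the left and the NSC library on the right. E(spl)mbeta-HLH and E(spl)m3-HLH together make up 38.7% of the neuron bar and 6.09% of the NSC bar.

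The complex also holds genes for Bearded family proteins, small inhibitors of Neuralized, the ubiquitin ligase that promotes Delta signalling. It further holds Kaz-m1, which encodes a protein of the Kazal protease inhibitor type, and, at its end, groucho (gro), the corepressor of the E(spl) proteins. Of the 6 genes of the complex that encode no bHLH protein, 3 were at least 2-fold lower in neurons and 1 was at least 2-fold higher, with a median log2 change of -0.83. The shares among all genes compared were 16.6% lower and 26.9% higher. E(spl)m4-BFM had 41.4 FPKM in neurons and 632 FPKM in NSCs (log2 change -3.90), and E(spl)malpha-BFM had 88.5 FPKM in neurons and 302 FPKM in NSCs (log2 change -1.76). E(spl)m6-BFM, in contrast, had 52.4 FPKM in neurons and 3.09 FPKM in NSCs (log2 change 3.71). E(spl)m2-BFM had 62.0 FPKM in neurons and 97.4 FPKM in NSCs (log2 change -0.64), and Kaz-m1 had 59.8 FPKM in neurons and 30.8 FPKM in NSCs (log2 change 0.94). gro had 97.6 FPKM in neurons and 198 FPKM in NSCs (log2 change -1.01), and under TPM scaling its log2 change was -0.75. TPM scaling also took Kaz-m1 past 2-fold, to 1.21.

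Within the complex, which lies on arm 3R whereas h lies on arm 3L, each gene was set beside its neighbours. Along the 13 genes of the complex that the table holds, 8 were at least 2-fold lower in neurons, 3 were at least 2-fold higher and 2 lay within 2-fold, beside 16.6% lower and 26.9% higher among all genes compared. The 3 higher genes were thus no larger a share than among all genes, and 7 of the 13 are the bHLH genes already counted. Of the 12 pairs that neighbour each other among these 13 genes, 5 were past 2-fold in opposite directions and 4 were past 2-fold in the same direction. These counts depend on how many genes were lower and higher, and no other order was compared. No layout is therefore read from them. E(spl)mbeta-HLH stood between E(spl)mgamma-HLH and E(spl)malpha-BFM, both lower in neurons. E(spl)m6-BFM stood between E(spl)m5-HLH and E(spl)m7-HLH, both lower in neurons. E(spl)m3-HLH, with a log2 change of 1.02, stood between E(spl)m2-BFM, with -0.64, and E(spl)m4-BFM, with -3.90. Under TPM scaling 6 genes of the complex were at least 2-fold lower and 4 were at least 2-fold higher. A further 6 genes are annotated in the complex, all for long non-coding RNAs, and were not analysed here. Some of them lie between genes called neighbours here, as on both sides of E(spl)mbeta-HLH.

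**Figure D4:**
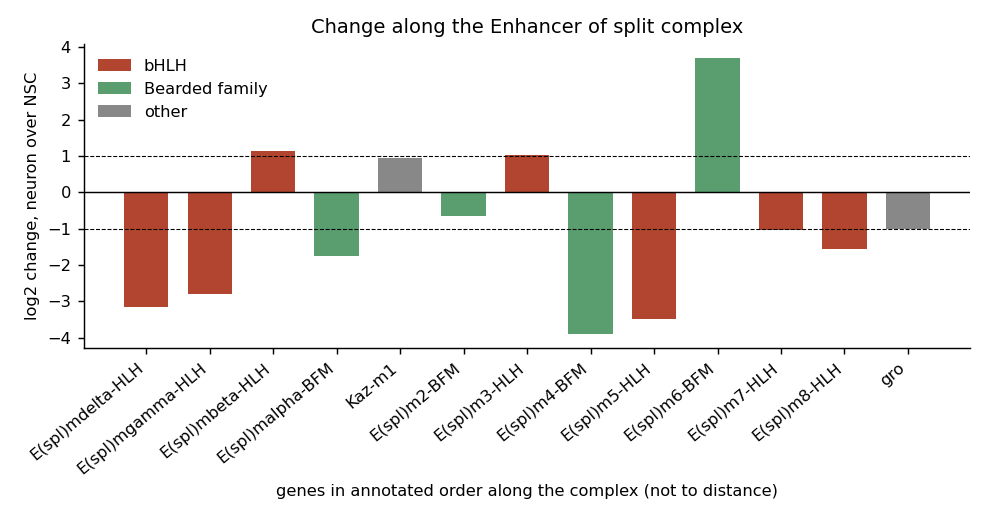
Log2 change (neuron over NSC) of the 13 genes of the Enhancer of split complex in their annotated order, from E(spl)mdelta-HLH to gro, with bHLH genes in red, Bearded family genes in green and the others in grey. Spacing is not to genomic distance and dashed lines mark 2-fold. Bars above 1 are those of E(spl)mbeta-HLH, E(spl)m3-HLH and E(spl)m6-BFM. The bars beside E(spl)m3-HLH are those of E(spl)m2-BFM, at -0.64, and E(spl)m4-BFM, at -3.90.

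Upstream of the E(spl) genes, the 20 genes listed for the Notch pathway had a median log2 change of -0.49, with 6 at least 2-fold lower in neurons, 2 at least 2-fold higher and 12 within 2-fold. Among all genes compared, 16.6% were lower and 26.9% higher, with a median of 0.14. The receptor gene Notch (N) had 40.1 FPKM in neurons and 67.9 FPKM in NSCs (log2 change -0.74), and its nuclear partner Su(H) had 18.2 FPKM in neurons and 26.9 FPKM in NSCs (log2 change -0.54). The ligand genes differed in opposite directions. Delta (Dl) had 35.5 FPKM in neurons and 158 FPKM in NSCs (log2 change -2.12), while Serrate (Ser) had 20.1 FPKM in neurons and 1.498 FPKM in NSCs (log2 change 3.08). fringe (fng), which encodes a glycosyltransferase that alters the response of Notch to its ligands, had 39.96 FPKM in neurons and 3.05 FPKM in NSCs (log2 change 3.34). The other lower genes were bib (-2.97), pen-2 (-1.80), neur (-1.39), rumi (-1.37) and O-fut1 (-1.04) by log2 change, and O-fut1 was not 2-fold lower under TPM scaling (-0.79).

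Genes were also listed for 5 corepressors and modifiers that act with E(spl) and Hairy. Of these, gro and the histone deacetylase gene Rpd3 were at least 2-fold lower in neurons, none was at least 2-fold higher and 3 were within 2-fold. Their median log2 change was -0.88. Among all genes compared 16.6% were lower and 26.9% higher, and 5 genes are too few to set against these shares. Under TPM scaling, of these 5 only Rpd3 was at least 2-fold lower. Rpd3 had 69.1 FPKM in neurons and 238 FPKM in NSCs (log2 change -1.77). CtBP and Sir2, which encode corepressors that Hairy binds, had log2 changes of -0.88 and -0.65. CkIIalpha, which encodes the catalytic subunit of casein kinase 2, had 133 FPKM in neurons and 138 FPKM in NSCs (log2 change -0.06).

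Among the proneural genes and their partners, 5 of 9 were at least 2-fold lower in neurons and none was at least 2-fold higher, with a median log2 change of -1.76. Over all genes compared, the shares were 16.6% lower and 26.9% higher. Of the activators of the achaete-scute complex, l(1)sc had 2.11 FPKM in neurons and 129.9 FPKM in NSCs (log2 change -5.40), ac had 1.49 FPKM in neurons and 49.9 FPKM in NSCs (-4.35), and sc had 1.301 FPKM in neurons and 20.2 FPKM in NSCs (-3.21). The other 2 were ato (-3.95), a proneural gene of chordotonal organs and photoreceptors, and amos (-1.76), a proneural gene of olfactory organs, while ase (-0.92) and cato (-0.83) lay within 2-fold. The level of ato was 0.0336 FPKM in neurons and 14.9 FPKM in NSCs, so the size of its log2 change depends on the added 1. The median of this list, -1.76, was the value of amos, which had 0.0754 FPKM in neurons and 2.63 FPKM in NSCs. At such levels it depends on the added 1, so it was not set against the E(spl) median. Under TPM scaling it was -1.94. The broadly expressed partners of the proneural genes differed less, with log2 changes of -0.61 for da, the common dimer partner, and 0.19 for emc, an inhibitor of dimer formation.

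Other repressors of the Hes and Hey class also differed in both directions. Values were found for 4 of the 5 listed, of which Hey and cwo were higher by at least 2-fold in neurons and dpn was lower by at least 2-fold, with a median log2 change of 1.10. The all-gene shares were 26.9% higher and 16.6% lower, and 4 genes are too few to set against them. Hey, a Notch target in newborn neurons, had 20.2 FPKM in neurons and 1.03 FPKM in NSCs (log2 change 3.38). cwo, a repressor of the circadian clock, had 26.6 FPKM in neurons and 10.8 FPKM in NSCs (log2 change 1.23). dpn, which marks neuroblasts, had 15.3 FPKM in neurons and 37.9 FPKM in NSCs (log2 change -1.26). Her had 1.19 FPKM in neurons and 0.113 FPKM in NSCs (log2 change 0.98), and under TPM scaling it passed 2-fold (1.29).

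Since h is also a pair-rule gene, it was set beside 7 others of that class. Of these, ftz, slp1 and odd (3 of 7) were lower by at least 2-fold in neurons, with log2 changes of -2.33, -1.23 and -1.16. None was at least 2-fold higher. The all-gene shares were 16.6% lower and 26.9% higher, and 7 genes are too few to set against them. The median log2 change of the 7 genes was -0.56, and that of h was 0.87. The highest log2 change of the 7 was that of eve, with 7.48 FPKM in neurons and 3.39 FPKM in NSCs (0.95), which like h passed 2-fold under TPM scaling (1.22), while under that scaling only ftz of the class was at least 2-fold lower.

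Genes were also sought by their distance from the median point of the 7 E(spl) genes on the axes log2(neuron FPKM + 1) and log2(NSC FPKM + 1). That point joins the neuron level of E(spl)mgamma-HLH with the NSC level of E(spl)mdelta-HLH. No E(spl) gene lies at it and their log2 changes run from -3.49 to 1.14, so genes near it resemble the middle of the family and not its members. With 2 libraries the distance rests on 2 values per gene. The nearest 5 genes outside the family were CG10418, Taf13, Sap30, CG12391 and CG14614, at distances of 0.015 to 0.059 in log2 units. Taf13, for example, had 45.6 FPKM in neurons and 114.6 FPKM in NSCs. The median levels of the 7 E(spl) genes were 46.3 FPKM in neurons and 114.6 FPKM in NSCs.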

How the data were processed

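The authors aligned nuclear RNA reads to FlyBase release 5.43 transcripts with TopHat 1.3.1 and computed levels from the uniquely mapped reads with Cuffdiff 1.3.0. The submitters' processing notes also list Bowtie and dm3. The values deposited by the authors are FPKM, with 1 value per gene and library. Repeated header lines between the 13623 rows of genes were dropped. Read length, strandedness and total reads are not given in the sources used here. The labels describe cross-linked embryos and the study's methods embryos without crosslinking.

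No count model was fitted to FPKM. Genes with at least 1 FPKM in at least 1 library were compared as log2((neuron FPKM + 1)/(NSC FPKM + 1)). Depth was estimated from the steps of low FPKM of genes with 1 transcript, as the fragment number that best made FPKM times exonic length less 200 bases whole. The step strength (0 to 1) was 0.759 for neurons and 0.752 for NSCs, and 0.158 and 0.153 without the subtraction. Lengths, exons and gene order came from Ensembl release 115 of BDGP6. That is another assembly than the authors', so no coordinates are given. The text names the 8 genes, the driver genes, members of 13 lists and the 5 genes nearest the median point of the 7 E(spl) genes. These genes and lists were chosen with earlier results of these data known. Pseudocounts of 0.1 and 5, TPM, median and upper quartile scaling, and 3 filters were tried. Scripts used Python 3.11.15, pandas 2.3.3 and numpy 2.4.6 and were tested on simulated data.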

Additional observations from a re-analysis of the deposited data

How the results depend on the processing

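The count of 5 genes at least 2-fold lower in neurons was kept under both other pseudocounts, and under median and upper quartile scaling, which moved the log2 ratios of FPKM by 0.0034 and 0.0077, and was 4 under TPM scaling, where E(spl)m7-HLH had a log2 change of -0.781. The 3 filters could not change it, since all 8 genes had at least 11.96 FPKM in neurons and 22.8 FPKM in NSCs. TPM scaling adds 0.27 to the log2 ratio of FPKM of every gene before 1 is added, and the shift after adding 1 differs between genes. Of all genes past 2-fold 74.2% were then higher in neurons, compared with 61.9% as deposited. It also took h to 1.13, past 2-fold, so that 3 of the 8 genes were then higher. With a pseudocount of 5 the change of E(spl)m3-HLH was 0.914 and 1 gene was at least 2-fold higher, and over all genes the number at least 2-fold higher was 1631, against 2735. The log2 changes of E(spl)m5-HLH (-3.56 to -3.22), E(spl)mdelta-HLH (-3.25 to -2.82), E(spl)mgamma-HLH (-2.83 to -2.55), E(spl)m8-HLH (-1.58 to -1.30) and E(spl)mbeta-HLH (1.07 to 1.41) stayed past 2-fold under each pseudocount and scaling run. The log2 ratio of the summed E(spl) level was -1.28 under TPM scaling and -1.19 without E(spl)mgamma-HLH, against -1.54. Leaving out a library was not possible, with 1 per group. No paired analysis was possible because each group had a single library.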

Other observations

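The genes of the complex with positive and with negative changes differed in level in the NSC library. E(spl)m6-BFM, Kaz-m1, E(spl)m3-HLH and E(spl)mbeta-HLH, the 4 genes of the complex with a positive log2 change, had 47.5 to 89.6 FPKM in neurons and 3.09 to 40.03 FPKM in NSCs. The 9 with a negative log2 change had 11.96 to 107 FPKM in neurons and 97.4 to 632 FPKM in NSCs, so the ranges of the 2 sets overlapped in neurons and did not overlap in NSCs. Over the whole complex the highest gene was 8.96 times the lowest in neurons and 204 times the lowest in NSCs. The sets were formed by the sign of the change, so these ranges are a description and carry no test.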
